A study of Homo sapiens with 24 samples.

Results

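The 55 genes described here encode proteins that act in G2 phase and mitosis, from CDK1 and its cyclins to the kinesins and the cytokinesis machinery. They were chosen by name, with earlier results of these data known, from the 17611 genes measured on the first of the 2 array designs and the 17348 measured on the second. For each gene the brightest probe was used. All 55 were well above background in both channels of all 24 two-colour arrays, so no gene dropped out through a filter. The measure is the log2 ratio of the treated sample (Cy5) over its control (Cy3), so that a negative value is a level under the control, and every value below is such a log2 ratio unless a level is named.

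The arrays held RNA from 7 established human cancer cell lines under 14 treatments, with 1 array for each treatment and line. In the prostate cancer lines PC3 and DU145, genistein, a soy isoflavone that inhibits tyrosine kinases, was compared with a control labelled as untreated and described as vehicle in the study's methods. The labels give no dose or time for it, whereas the study's methods state both for its genistein cultures. miR-145 was compared with a control miRNA in PC3, DU145 and LNCap, miR-143 in DU145 and PC3, and miR-23b, miR-24 and miR-27b in PC3. miR-27b was also transfected into the renal cell carcinoma lines 786O and A498, miR-375 into the head and neck squamous line FaDu and miR-29a into the squamous line SAS. Small interfering RNAs against CAV2 (786O, A498), LAMB3 (FaDu, SAS) and GOLM1 (DU145, PC3) were compared with a control siRNA, the plant flavone wogonin with DMSO in SAS and FaDu, and the chemokine CXCL10 with no treatment at 12 h and 24 h in 786O. miRNAs and siRNAs were transfected with a lipid reagent.

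The labels were checked against known genes. The siRNA targets were lower on their own arrays, CAV2 at -3.80 and -3.20, GOLM1 at -3.02 and -4.15 and LAMB3 at -2.50 in FaDu and -0.89 in SAS. In the control channels, on the first design, KRT5 and KRT14 were bright in FaDu and SAS alone and PAX2 in the renal lines alone. Of the non-control spots, 53.2% to 67.6% were well above background in Cy3 and 54.2% to 68.9% in Cy5. Each of 3 slides held whole treatments, except that miR-27b was on slide 2 for PC3 and slide 3 for the renal lines, so slide and treatment cannot be told apart. The dyes were never swapped. In these bulk samples, fewer cells in mitosis and less RNA of these genes per cell cannot be told apart.

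CDK1 bound to cyclin A (CCNA2) or cyclin B (CCNB1, CCNB2) drives entry into mitosis, after CDC25 phosphatases remove its inhibitory phosphates. PLK1 and the Aurora kinases build the spindle, BUB1, BUB1B, TTK and MAD2L1 delay anaphase until the chromosomes are attached, and CDC20 and UBE2C then help the anaphase-promoting complex to destroy cyclin B. Most of these genes are transcribed late in the cell cycle by B-MYB and FOXM1 with the MuvB complex. Their promoters hold a cell cycle homology region (CHR) and CCAAT boxes, and the genes are silenced in resting cells. Their RNA is therefore used as a measure of how much a culture is dividing.

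The mature sequences of 5 of the transfected miRNAs are shown with their seed, bases 2 to 8 from the 5′ end, in capitals. The sequences are those of RefSeq on GRCh38.p14. The labels give no arm, and the arm usually held as the guide strand is printed. The 5 seeds all differ. The genes of miR-23b, miR-27b and a copy of miR-24 lie close together on chromosome 9.
miR-145-5p, chr5:149430661-149430683, plus strand: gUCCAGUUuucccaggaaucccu
miR-375-3p, chr2:219001648-219001669, minus strand: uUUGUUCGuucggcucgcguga
miR-23b-3p, chr9:95085265-95085287, plus strand: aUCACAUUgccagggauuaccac
miR-27b-3p, chr9:95085505-95085525, plus strand: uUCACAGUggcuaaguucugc
miR-24-3p, chr9:95086064-95086085, plus strand: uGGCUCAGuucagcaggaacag

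Since these genes moved together on several arrays, their promoters were searched for the letters TTTGAA and TTCGAA (CHR) and CCAAT, on both strands, in the 250 bases before the RefSeq start. Promoters of 45 members were at hand. A CHR match was found in 24 of them (53.3%) against 10.9% of the 13692 measured genes of the first design with a promoter, and a CCAAT match in 35 (77.8%) against 34.7%. Both stood together in 22 members (48.9%) against 4.32% of all. The motifs were not particular to these members. Of 30 other mitosis genes with a promoter, 40% had a CHR match, 63.3% a CCAAT match and 30% both. Of 26 S-phase and replication genes the shares were 7.69%, 53.8% and 7.69%. The stretch just before the start is printed for a few of them on GRCh38.p14, plus strand, with CHR and CCAAT matches in capitals: both B cyclins, which were far lower under genistein in PC3, and CKS1B and CDC25B, which were the least lowered members on that array.
CCNB1, chr5:69167025-69167149: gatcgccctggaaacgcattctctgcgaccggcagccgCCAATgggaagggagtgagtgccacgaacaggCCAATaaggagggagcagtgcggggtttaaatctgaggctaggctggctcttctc
CCNB2, chr15:59105021-59105145: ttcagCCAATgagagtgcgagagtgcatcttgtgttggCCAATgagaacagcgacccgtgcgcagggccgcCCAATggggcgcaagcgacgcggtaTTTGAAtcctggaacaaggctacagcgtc
CKS1B, chr1:154974556-154974680: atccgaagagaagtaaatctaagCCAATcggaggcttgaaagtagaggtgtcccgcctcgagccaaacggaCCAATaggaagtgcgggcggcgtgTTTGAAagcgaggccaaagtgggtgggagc
CDC25B, chr20:3786826-3786950: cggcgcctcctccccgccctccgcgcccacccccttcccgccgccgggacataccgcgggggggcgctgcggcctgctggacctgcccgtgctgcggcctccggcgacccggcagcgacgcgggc

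CKS1B carried the same motifs as CCNB2, and CDC25B carried neither. On the PC3 genistein array the median was -2.63 over the 24 members with a CHR match and -2.59 over the 21 without. On the PC3 miR-27b array the medians were 1.05 and 0.91. For members with and without a CCAAT match they were -2.65 and -2.58 under genistein, and 1.04 and 1.005 under miR-27b. On the PC3 miR-145 array they were further apart, at -0.71 with and -0.49 without. Members with and without these letters thus lay at similar values on the genistein and miR-27b arrays. The search read only these letters before the RefSeq start, so a member without a match may still hold the element. Whether the motifs bear on the values was therefore not tested.

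Across the 24 arrays the median of the 55 genes ran from -2.59 to 1.05. It was below -0.5 on 2 arrays (genistein and miR-145, both in PC3), above 0.5 on 3 (miR-375 in FaDu, miR-24 and miR-27b in PC3) and within 0.5 on the other 19. The median of all genes measured on an array lay between -0.10 and 0.09 throughout. The software's own error for a single value had a median of 0.21 over all members and arrays and reached 0.45. On each array, 7 members (BIRC5, CCNA2, CCNB1, CDK1, CENPE, KIF20A, TOP2A) had 10 spots, and the SD over spots was 0.04 at the median and 0.28 at most. Values well past 0.5 were thus larger than the measurement error of the array. These errors do not cover differences between cultures, and treatments with 1 array were not tested.

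**Figure D1:**
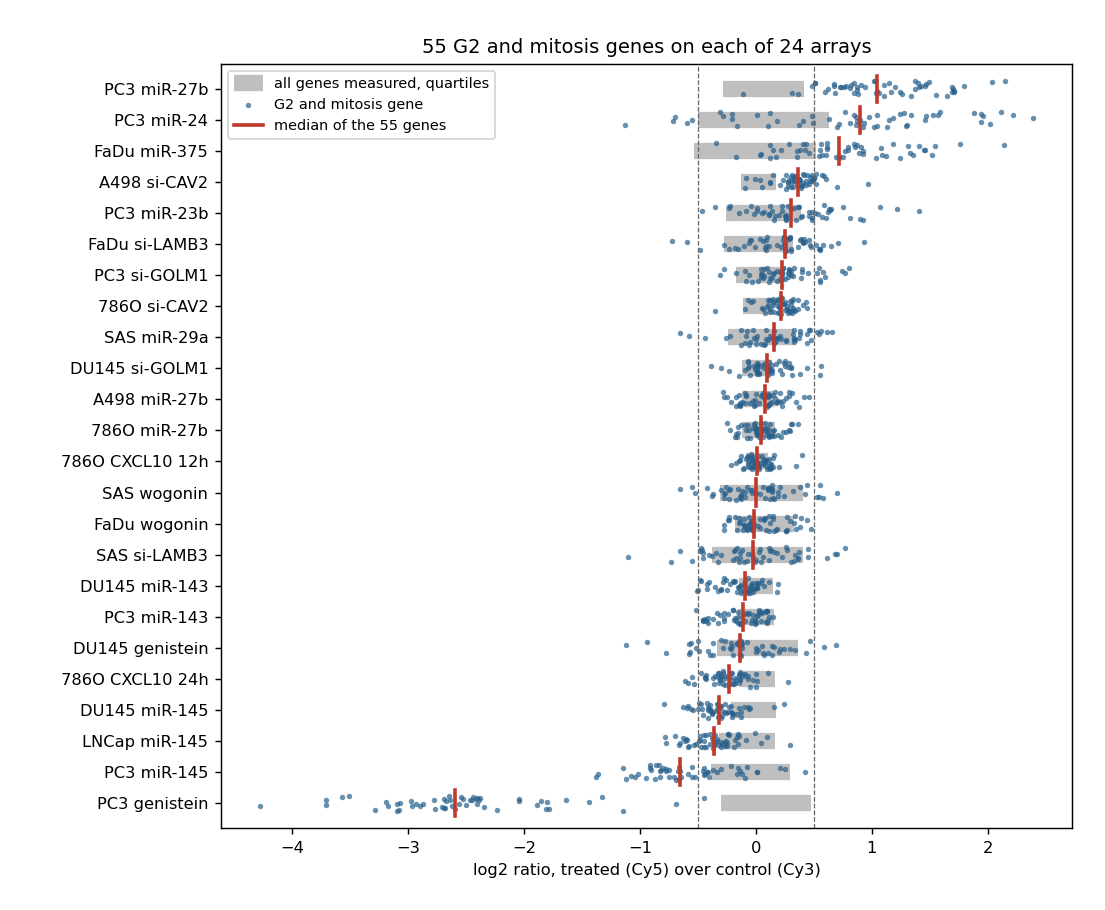
Each blue point is 1 of the 55 genes on the array named at the left, the horizontal axis is the log2 ratio of treated over control, red lines mark the median of the 55 genes and grey bars the quartiles of all genes measured on that array; dashed lines mark -0.5 and 0.5. The PC3 genistein array stands apart with a median of -2.59, and the medians of PC3 miR-27b, PC3 miR-24 and FaDu miR-375 lie above 0.5.

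Under genistein these genes lay 6.03-fold under the control at the median in PC3, and close to the control in DU145. In PC3, 54 of 55 members were below -0.5, where 16.8% of all genes were, and none was above 0.5, where 24% of all genes were. In DU145, 8 members were below -0.5 (17.1% of all genes) and 2 above 0.5 (18.2%), with a median of -0.14. The share of members called in DU145 was thus near or under that of all genes. All but 1 member, CDC25B, were lower in PC3 than in DU145. With 1 array a line, the difference between the lines was not tested. The study reported a G2/M arrest under genistein in both lines by flow cytometry, and its relation to these values was not tested.

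In PC3 the lowest values were those of KIF20A, a kinesin of the central spindle, at -4.28, of DLGAP5, a spindle microtubule protein, at -3.71 and of the hyaluronan receptor HMMR, which also binds the spindle, at -3.71. The values in DU145 were -0.94 for KIF20A, -0.38 for DLGAP5 and 0.69 for HMMR. HMMR and the kinesin KIF18A (-1.44 in PC3, 0.59 in DU145) were the only members past 0.5 in opposite directions. The least lowered members in PC3 were CKS1B, a CDK-binding protein that is also part of an SCF ubiquitin ligase, at -0.45, CDC25B at -0.69 and KIF20B at -1.15. CDC25B was the lowest member in DU145, at -1.12.

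By role, the medians in PC3 were close together, from -2.15 for the 4 cytokinesis genes to -2.93 for the 7 centromere and kinetochore genes. CENPA, the centromeric histone, was at -3.51 and its chaperone HJURP at -1.78. CDK1 was at -2.35, CCNA2 at -2.42, CCNB1 at -3.20 and CCNB2 at -3.08. AURKA (-2.64), PLK1 (-2.50), BIRC5 (survivin, -3.17), MKI67 (the Ki-67 proliferation mark, -3.10), TOP2A (the DNA decatenating topoisomerase, -3.29) and FOXM1 (-2.69) were all within the same range. A second, dimmer probe of PLK1 read -4.37 on this array. In DU145 the same genes ranged from -0.58 for AURKA and for MKI67 to 0.205 for HJURP. TOP2A was at 0.16 there, CDK1 at 0.10, CCNB1 at -0.50, PLK1 at -0.56, BIRC5 at -0.29 and FOXM1 at -0.13.

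The 8 members below -0.5 in both lines were CDC25B, KIF20A, GTSE1, AURKA, MKI67, KIF11, PLK1 and BUB1B. They were all the members below -0.5 in DU145, where 17.1% of all genes were. The mean of both genistein arrays was tested against 0 with limma, in 1 fit over the 16 arrays of the first design. At an adjusted p under 0.05, 13 of 55 members were lower (AURKA, BUB1B, CCNB1, CDC25B, CDC25C, ECT2, GTSE1, KIF11, KIF20A, MKI67, PLK1, SPC25, TROAP) and none was higher, where 6.28% of the 20546 probes tested were lower. The count was 23 with no background correction and 18 with normexp correction, where 1588 and 1460 of 20546 probes were lower. It was 3 with the arrays of the slide only (1312 probes lower) and 1 with no filter on dim probes (1033 of 42405). KIF20A had a mean of -2.61 ± 0.60 (SE, n = 2 arrays, adjusted p = 0.025 by limma), and CDC25B one of -0.90 ± 0.19 (SE, n = 2 arrays, adjusted p = 0.02 by limma). Leaving out a line leaves genistein with 1 array, which is then assumed to vary as the other treatments do between lines. The gap between both lines then no longer counts as spread, so no calls are given for such fits. The median of the members was -2.59 in PC3 alone and -0.14 in DU145 alone.

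**Figure D2:**
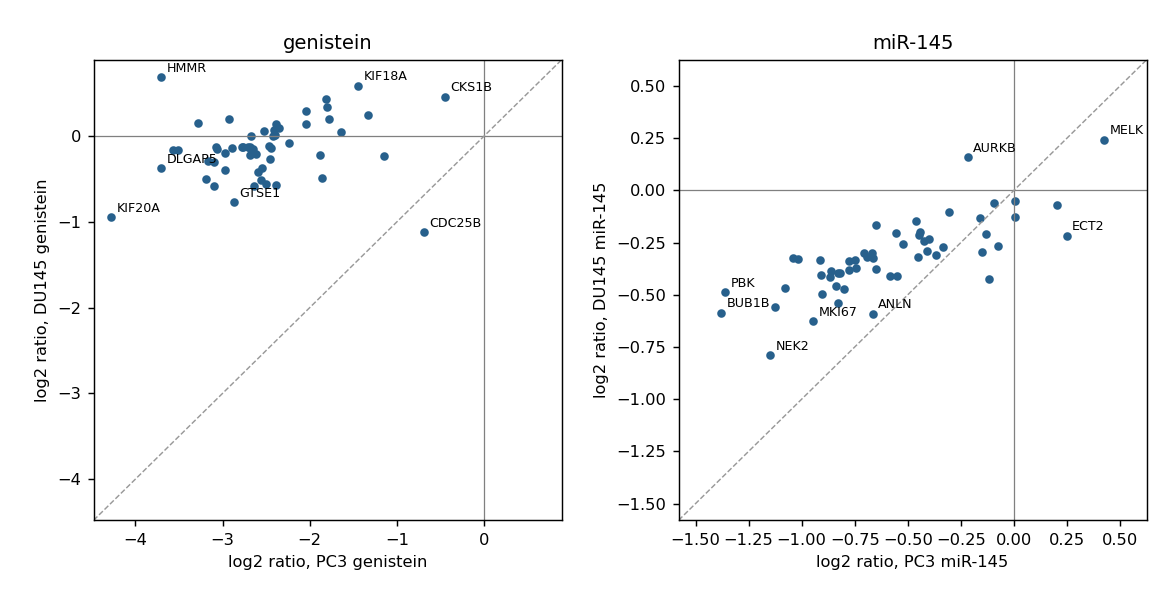
Each point is 1 of the 55 genes, placed by its log2 ratio in PC3 (horizontal) and in DU145 (vertical), for genistein at the left and miR-145 at the right; the dashed line marks equal values. Under genistein the points lie far left of the dashed line, apart from CDC25B, and under miR-145 they spread along a flatter band with NEK2, BUB1B and PBK at its low end.

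Against the control on the same array, the members lay lower under miR-145 in all 3 prostate lines, by less than under genistein in PC3. The medians were -0.65 in PC3, -0.32 in DU145 and -0.37 in LNCap, and 47 of 55 members were below 0 on all 3 arrays. The medians of all genes were -0.05, -0.02 and -0.10, and their share below 0 on all 3 arrays was not counted. The direction seen for the members depended on the control. Against control channels of other arrays of the same line and design, an alternative chosen after the values were seen, PC3 and DU145 both had a median of 0.36, and after subtracting the mean of the other treatments on its slide it was -0.31 in PC3, -0.05 in DU145 and -0.11 in LNCap. Members below -0.5 numbered 33 in PC3 (19.3% of all genes), 6 in DU145 (7.82%) and 13 in LNCap (11.7%). None was above 0.5 on these arrays, where 17.1% of all genes were in PC3. The values of the members in PC3 and DU145 had a Pearson r of 0.77 over the 55 genes, and those in PC3 and LNCap 0.70, which are descriptions only, since genes of an array share its labelling.

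BUB1B, the checkpoint kinase-like protein BubR1, was at -1.38, -0.59 and -0.79 in PC3, DU145 and LNCap, KIF20A at -1.12, -0.56 and -0.59 and CENPA at -0.83, -0.54 and -0.66. These were the 3 members below -0.5 in every line. Over all genes the share below -0.5 in every line was not counted. The mitotic kinase PBK (-1.36, -0.49, -0.61) and the centrosomal kinase NEK2 (-1.15, -0.79, -0.45) followed. CDK1 was at -0.67, -0.30 and -0.65, CCNB1 at -0.82, -0.40 and -0.25, TOP2A at -1.08, -0.47 and -0.43 and MKI67 at -0.95, -0.63 and -0.38. FOXM1, the transcription factor of the set, stood at 0.01, -0.13 and -0.23, close to no difference in every line. MELK, a kinase of the AMPK family, was highest in PC3 (0.43) and DU145 (0.24), and the cytokinesis gene ECT2 in LNCap (0.30).

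In the limma fit with all 16 arrays, no member was called for miR-145, where 6.82% of all probes were called in either direction. At an unadjusted p under 0.05 in this limma fit 1 member was lower, against 4880 of 20546 probes in either direction. The spread shared by that fit holds the gap between both genistein arrays. In a fit without the genistein arrays, an alternative chosen after the values were seen, 23 of 55 members were called lower for miR-145 and none higher, where 5.09% of all probes were lower. The SE of CDK1 was 0.35 in the first fit and 0.11 in the second, with the same mean of -0.54 (n = 3 arrays) and adjusted p = 0.39 and 0.0293 by limma. BUB1B had the lowest mean of the called members, at -0.92 ± 0.15 (SE, n = 3 arrays, adjusted p = 0.0143 by limma).

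miR-375 in FaDu went with higher values of most members. The median was 0.72 (0.20 against the other FaDu controls), 38 of 55 members were above 0.5 (25.7% of all genes) and none was below -0.5 (26.1%). The highest were BUB1, a spindle checkpoint kinase, at 2.14, CCNA2 at 1.76 and ECT2 at 1.54, followed by MAD2L1 at 1.52 and HMMR at 1.46. CDK1 was at 1.04, CCNB1 at 0.90, PLK1 at 0.79, AURKA at 0.57, TOP2A at 0.61, BIRC5 at 1.33, MKI67 at 0.56 and FOXM1 at 1.35. Kinesins were nearest to 0 among the role groups, with a median of 0.30, and KIF18A (-0.34) was the lowest member. With 1 array this comparison was not tested.

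On the PC3 arrays of slide 2, miR-27b and miR-24 had high values against their own controls and miR-23b smaller ones. Against the 2 PC3 controls of slide 1, in an alternative chosen after the values were seen, the medians were 0.10 for miR-27b, -0.071 for miR-24 and -0.61 for miR-23b, so these high values were seen only against the controls of slide 2. Under miR-27b 51 of 55 members were above 0.5 (20.9% of all genes) and none below -0.5 (15.2%), with a median of 1.05. Under miR-24 37 were above 0.5 (30%) and 5 below -0.5 (25%), with a median of 0.90. Under miR-23b 16 were above 0.5 (18.9%), with a median of 0.30.

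The members did not line up alike on these 3 arrays. Under miR-27b the highest were BIRC5 at 2.15, FOXM1 at 2.03 and CCNA2 at 1.80, and CDC25B (-0.11) alone was below 0. Under miR-24 the highest were TOP2A at 2.39, ANLN (anillin, which scaffolds the contractile ring) at 2.21 and CENPF at 2.11. CCNB1 was the lowest there at -1.13, followed by FOXM1 at -0.72, SPC25 of the kinetochore NDC80 complex at -0.70, UBE2C at -0.59 and CDC25B at -0.55. On the miR-27b array CCNB1 was at 0.81, SPC25 at 1.71 and UBE2C at 0.67. Under miR-23b BIRC5 was at 1.41, CCNA2 at 1.22 and FOXM1 at 1.07, while CCNB1 was at 0.26, CDK1 at 0.25, PLK1 at 0.05 and MKI67 at 0.11. MKI67 was at -0.21 under miR-24 and 1.14 under miR-27b, CDK1 at 1.13 and 1.06, PLK1 at 0.90 and 0.87 and AURKA at 0.86 and 0.84.

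By role, miR-24 divided the set most. The cytokinesis genes had a median of 1.61, the checkpoint and anaphase-promoting complex genes 1.31 and the centromere genes 1.14, whereas the group of TOP2A, MKI67, FOXM1, CDCA2 and CDCA3 had one of 0.01 with values from -0.72 to 2.39. Under miR-27b all role medians lay between 0.67 and 1.37.

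**Figure D3:**
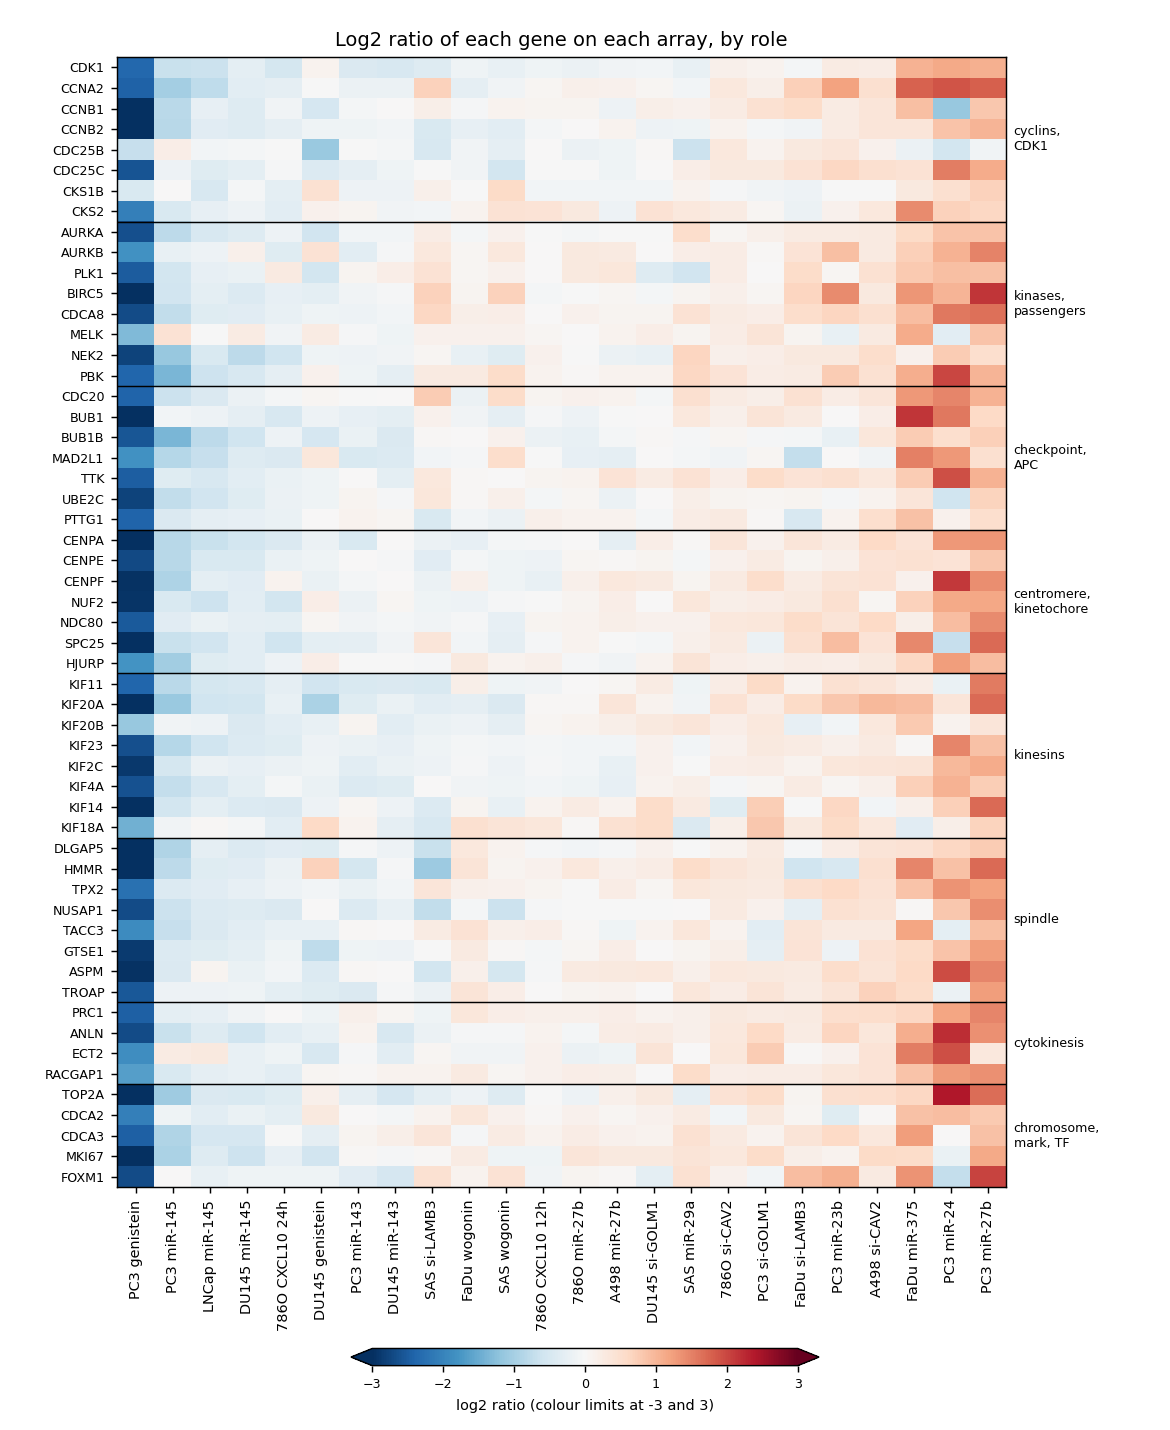
Rows are the 55 genes grouped by role, columns the 24 arrays ordered by the median of the set, and colour is the log2 ratio (blue lower, red higher in the treated sample, colours saturate at -3 and 3). The PC3 genistein column is blue in nearly every row, and the PC3 miR-24 column mixes dark red (TOP2A 2.39) with blue (CCNB1 -1.13).

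The control channels of these 3 PC3 arrays differed from those of other PC3 arrays. A level is the log2 signal in 1 channel minus the 75th percentile of the array, here as the median over the 55 genes relative to the mean control level of the design. The control level was -0.92 on the miR-23b, -0.91 on the miR-24 and -0.96 on the miR-27b array, against -0.19 on the genistein and 0.28 on the miR-145 array of PC3. The treated levels were -0.56, 0.12 and 0.19 on the former 3. The treated cells under miR-24 and miR-27b thus lay within the range of the other PC3 controls, and their own controls lay below it.

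Gene by gene, the 3 control channels differed from each other by a median of 0.037 to 0.051 over the members, and from the other PC3 controls of this design by 0.74 to 1.20. Over all tested genes these distances were 0.058 to 0.066 and 0.32 to 0.40. The labels do not say whether the 3 arrays share a control RNA, so their values are set side by side and the arrays are not counted as separate evidence. The part of the control in these high values was not tested.

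The control level also varied between arrays of other lines. It was 0.22 and 0.84 in DU145 (genistein and miR-145), -0.05 to 0.40 in FaDu and 0.06 to 0.57 in SAS on the first design, and 0.07 to 1.10 in 786O on the second, where A498 had the lowest at -1.69. In FaDu the miR-375 array had the lowest control, at -0.05, with a treated level of 0.65. On the PC3 genistein array, the treated level of -2.75 was the lowest of all 48 channels.

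Since the control levels varied this much, each treated channel was also set against the mean control level of the other arrays of its line and design, as given above for miR-145. In DU145 of the first design this is a single other array. In PC3 it counts the 3 like controls of slide 2 separately, so it was run again with these 3 as 1 control, not used for their own arrays. The median for genistein in PC3 was -2.05 in the first form and -2.34 in the second, and that for miR-145 in PC3 0.36 and 0.23. For miR-24 the values were 0.39 and -0.071, for miR-27b 0.61 and 0.10 and for miR-23b -0.15 and -0.61. The low median under genistein in PC3 thus held against each of these controls, whereas the signs for miR-145, miR-24 and miR-23b in PC3 did not. Of the other lines in the first form, DU145 genistein was at -0.79, CXCL10 in 786O at 0.36 at 12 h and -1.22 at 24 h, SAS wogonin at -0.51, FaDu wogonin at 0.29, SAS miR-29a at 0.57 and LAMB3 knockdown at 0.49 in FaDu and 0.12 in SAS. The LNCap array, both A498 arrays and 786O with CAV2 knockdown had no other array of their line and design.

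**Figure D4:**
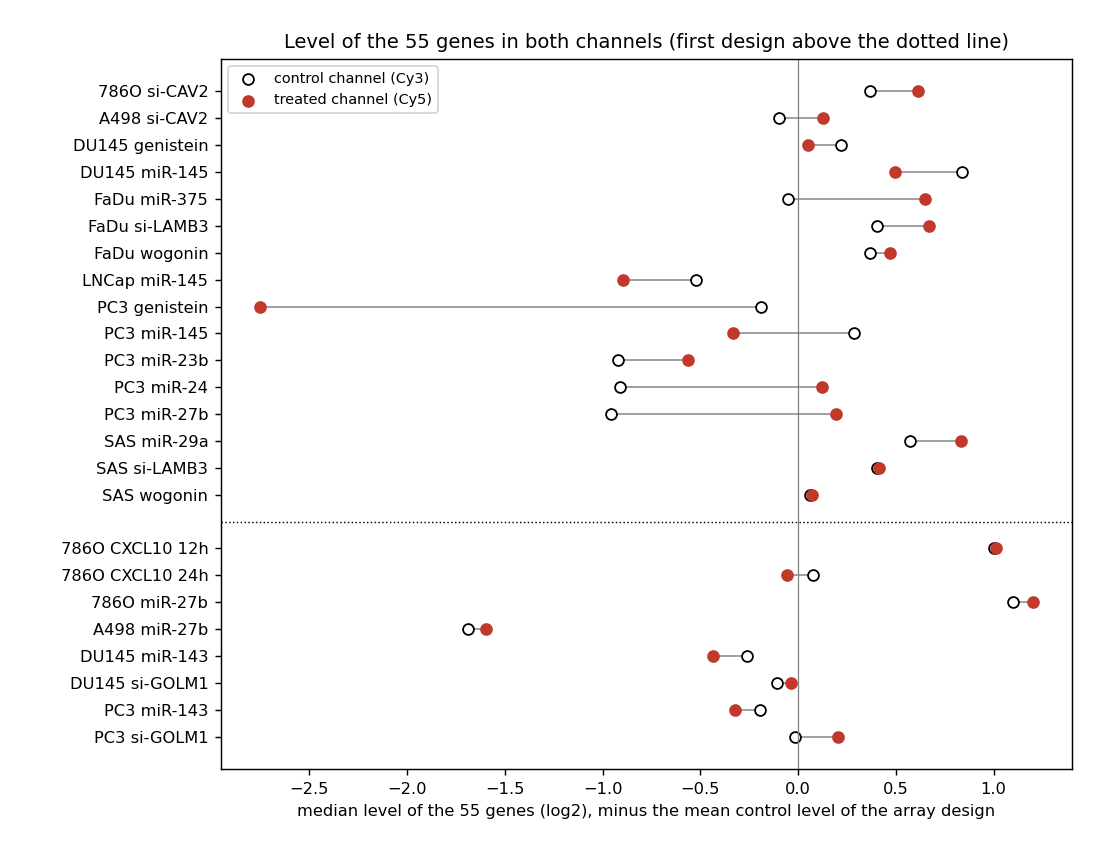
For each array, the open circle is the median level of the 55 genes in the control channel and the red point that in the treated channel, in log2 units relative to the mean control level of the array design; arrays of the first design are above the dotted line. The PC3 controls of miR-23b, miR-24 and miR-27b lie together near -0.9, and the treated channel of PC3 genistein lies at -2.75.

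miR-27b in the renal lines gave values close to 0 against the control on the same array. The medians were 0.05 in 786O (0.60 against the other 786O controls of the design) and 0.08 in A498, and no member was past 0.5 in either line, where 9.87% and 9.68% of all genes were in either direction. These arrays were of the second design, so they were not fitted together with PC3. limma called 0 of 55 members, where 0.607% of the 21904 probes tested were called in either direction. At an unadjusted p under 0.05 by limma 2 members were lower and 6 higher, counts with no share of all probes beside them. MKI67 was the highest in 786O at 0.36 and KIF18A in A498 at 0.46. CDK1 was at -0.17 and -0.10, CCNB1 at 0.08 and -0.15, PLK1 at 0.29 and 0.35 and BIRC5 at 0.00 and 0.06.

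Knockdown of CAV2, a caveolar protein, went with slightly higher values across the set. The medians were 0.37 in A498 and 0.22 in 786O, and 50 of 55 members were above 0 in both. The median of all genes was 0.02 on each array, and their share above 0 in both was not counted. Above 0.5 were 9 members in A498 (4.47% of all genes) and none in 786O, where 7.95% of all genes were past 0.5 in either direction. KIF20A was the highest in both, at 0.96 and 0.44, followed by TROAP and NDC80 in A498 (0.70 and 0.60) and by TOP2A and PBK in 786O (0.43 and 0.40). MAD2L1 and KIF14 were the lowest, at -0.10 and -0.09 in A498 and -0.10 and -0.35 in 786O. limma called 0 members, where 0.161% of all probes were called. At an unadjusted p under 0.05 by limma there were 0 members, against 930 of 20546 probes in either direction. In the fit without the genistein arrays 0 members were called as well. There 19 members were higher at an unadjusted p under 0.05 by limma, against 1195 of 20546 probes in either direction.

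Knockdown of GOLM1, a Golgi membrane protein, gave medians of 0.22 in PC3 and 0.10 in DU145, with 40 members above 0 in both. All genes had medians of 0.02 and 0.005, and their share above 0 in both lines was not counted. Above 0.5 were 9 members in PC3 (7.86% of all genes) and 2 in DU145 (2.95%). The mitotic kinesins KIF18A (0.80 and 0.55) and KIF14 (0.74 and 0.56), the 2 members above 0.5 in DU145, were above 0.5 in both lines. PLK1 was the lowest in DU145 at -0.39 and at 0.02 in PC3. limma called 0 members, where 0.278% of all probes were called. At an unadjusted p under 0.05 by limma 17 members were higher, a count with no share of all probes beside it. limma called 9 members higher with normexp and 6 with no background correction, again with no share of all probes beside these counts. MKI67 was at 0.55 in PC3 by its brightest probe, where another of its 3 probes read -0.04, the only case among 61 such values past 0.5 of 12 genes with several probes where a probe had the opposite sign.

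miR-143 gave medians of -0.10 in DU145 and -0.11 in PC3, and 1 member was below -0.5 in each, TOP2A at -0.51 in DU145 (4.19% of all genes) and HMMR at -0.52 in PC3 (4.59%). CDK1 was at -0.48 and -0.44 and FOXM1 at -0.50 and -0.33. limma called 0 members, where 0.1% of all probes were called. At an unadjusted p under 0.05 by limma 13 members were lower, a count with no share of all probes beside it. limma called 5 members lower with normexp and 4 with no background correction, again with no share of all probes beside these counts. CDK1 had a mean of -0.46 ± 0.08 (SE, n = 2 arrays, adjusted p = 0.0944 by limma) by its brightest probe. Its second probe read -0.10 in DU145 and -0.06 in PC3, so the lower value was not shared by both probes.

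Under knockdown of LAMB3, a laminin subunit, members past 0.5 were no more frequent than genes at large. The medians were 0.25 in FaDu (-0.19 after subtracting the other treatments on the slide) and -0.02 in SAS, and 22 members had opposite signs in the lines. In FaDu 8 members were above 0.5 (15.2% of all genes) and 2 below -0.5 (14.5%), and in SAS 4 were above (20.4%) and 4 below (19.7%). CCNA2 (0.70 and 0.68), BIRC5 (0.65 and 0.70) and CDCA8 (0.52 and 0.62), the last of which sits with BIRC5 and AURKB in the chromosomal passenger complex, were above 0.5 in both lines. HMMR (-0.60 and -1.10) was below -0.5 in both. Over all genes, opposite signs and values past 0.5 in both lines were not counted. FOXM1 was at 0.93 and 0.45, CDC20 at 0.46 and 0.77 and MAD2L1 at -0.73 and -0.07. limma called 0 members in the fit of all arrays, where 9.26% of all probes were called. At an unadjusted p under 0.05 by limma there were 0 members, against 5471 of 20546 probes in either direction. In the fit without the genistein arrays 6 members were higher (BIRC5, CCNA2, CDCA8, FOXM1, PLK1, TPX2; 5.22% of all probes) and HMMR and PTTG1 lower (6.74%). CCNA2 and CDCA8 were then called for both miR-145 and LAMB3 knockdown, lower under the first and higher under the second.

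Wogonin left the median at 0.00 in SAS and -0.02 in FaDu. In SAS 5 members were above 0.5 (20.3% of all genes), BIRC5 the highest at 0.70, and 3 below -0.5 (17.1%), NUSAP1 the lowest at -0.66. In FaDu none was past 0.5, where 25.2% of all genes were. limma called 0 members, where 3.45% of all probes were called. At an unadjusted p under 0.05 by limma there were 0 members, against 4501 of 20546 probes in either direction. The members thus moved less than genes at large on the FaDu array.

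miR-29a in SAS had a median of 0.16 (-0.19 after subtracting the other treatments on the slide), with 5 members above 0.5 (15.1% of all genes) and 2 below -0.5 (13.2%). NEK2 (0.65), PBK (0.62) and HMMR (0.56) were the highest, and CDC25B (-0.65) and PLK1 (-0.58) the lowest. CXCL10 in 786O gave a median of 0.01 at 12 h, with no member past 0.5 (5.57% of all genes). At 24 h the median was -0.24, 52 of 55 members were below 0 and 4 below -0.5 (3.35% of all genes), namely SPC25 at -0.61, NEK2 at -0.59, NUF2 at -0.55 and CDK1 at -0.54. A second CDK1 probe read -1.46 at 24 h. The median of all genes was 0.02 at 24 h, and their share below 0 was not counted. PLK1 was the highest member at 24 h, at 0.28. Each time point was 1 array, and they were not tested against each other.

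Some members followed the set more closely than others. Over the 24 arrays, 38 of 55 members had a Pearson r of at least 0.9 with the median of the others. CDC25B had the lowest, at 0.24, and its values ran from -1.12 to 0.36, the only member never above 0.5. CKS1B was the only member never below -0.5, with values from -0.49 to 0.68. KIF20A had the widest spread, with an SD of 1.10 over the arrays, and BIRC5 was above 0.5 on the most arrays, 7 of 24. These were FaDu miR-375 and 6 of the 8 arrays of slide 2 (LAMB3 knockdown in both lines, SAS wogonin, and miR-23b, miR-24 and miR-27b in PC3), and the part of the slide was not tested. These correlations rest in part on the PC3 genistein array: without the genistein arrays the median r over the members was 0.85. CDC25B then had the lowest r, at -0.205, followed by KIF18A (0.31), MELK (0.33) and CCNB1 (0.42).

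The 10 other genes closest to the median of the set over the 24 arrays, among 11355 genes measured on all of them, were ARHGAP11B, KIF22, FAM83D, CEP55, SRSF3, SMC4, SHCBP1, CIT, FAM72D and ARHGAP11A, with a Pearson r of 0.97 for the first and 0.93 for the last. Without the genistein arrays their r lay between 0.84 and 0.94. FAM83D, which binds HMMR on the spindle, was at -3.85 in PC3 and -0.44 in DU145 under genistein. The splicing factor SRSF3 was at -1.15 and -0.29.

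Other cell cycle genes were set beside the members on the same arrays. On the PC3 genistein array, 36 other mitosis genes had a median of -1.70, with 31 below -0.5 and 2 above 0.5, while 30 genes of S-phase and replication had one of -0.53, with 17 below and 1 above. In a list of 18 brakes on mitotic entry and checkpoint genes, which also holds CDC25A and FBXO5, 9 were below and 3 above. Of 17 transcription regulators of the cell cycle 5 were below and 2 above, and of 9 G1 cyclins and related genes measured 2 and 1. Of all genes on this array 16.8% were below -0.5 and 24% above 0.5, so the counts of the last 2 lists are not far from those of genes at large. The CDK inhibitor CDKN1A (p21) was at 3.64 in PC3 and 1.18 in DU145, and GADD45A, a stress-induced inhibitor of CDK1, at 2.42 and 2.16. In the limma fit 6 of the 34 other mitosis genes tested were lower for genistein (CCNF, FAM83D, NCAPD2, PSRC1, SMC4, SPAG5, means from -1.13 to -2.15), 0 of 30 S-phase genes, and GADD45A was higher at a mean of 2.29 (n = 2 arrays, adjusted p = 0.0298 by limma). In the G1 list CDKN2C was lower, at -1.74.

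The order of these lists differed on the other arrays. Under miR-375 S-phase genes were higher than the members, with a median of 1.31 and 27 of 30 above 0.5. Under miR-27b in PC3 S-phase genes were close to the members, with a median of 1.08 and 28 of 30 above 0.5, and CCNG1 (cyclin G1) was at -3.50. It was also called lower in the renal lines by limma, with a mean of -1.08 (n = 2 arrays, adjusted p = 0.0298). Under miR-24 the list of brakes and checkpoint genes had a median of 0.84, close to the members, and E2F1 was at -1.68. Under miR-145 S-phase genes had medians of -0.20 in PC3, 0.10 in DU145 and -0.34 in LNCap, CDKN1A was at 2.72, 0.52 and 1.22, and limma called UNG lower (mean -1.50) and CHEK2 (1.49) and CCND3 (1.02) higher. For LAMB3 knockdown limma called GINS1, BTG2, E2F5 and E2F7 lower (means from -1.39 to -2.21) and MCM6 higher (0.66), and for wogonin MCM10 (1.17) and E2F3 (0.74) higher and GADD45B (-1.53) lower.

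**Figure D5:**
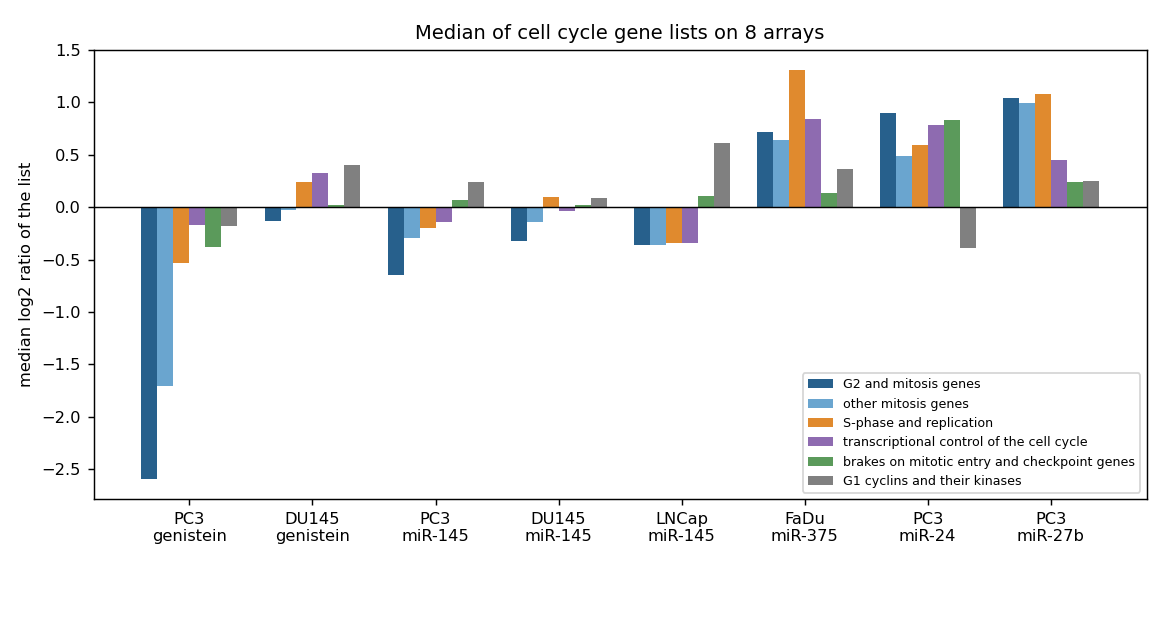
Bars are the median log2 ratio of the 55 G2 and mitosis genes and of 5 other cell cycle lists on 8 arrays, from 0. Under genistein in PC3 the bars of G2 and mitosis genes (-2.59) and of other mitosis genes (-1.70) reach far below those of the other lists, and under miR-375 in FaDu the S-phase bar is the tallest at 1.31.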

How the data were processed

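RNA from 24 treated samples and their controls was compared on 24 two-colour Agilent arrays, Cy3 for control and Cy5 for treated. The authors deposited the spot files that Agilent's software, Feature Extraction 10.7.3.1, writes: spot intensity per channel and a log ratio on the log10 scale, corrected by the authors' software for background, spatial trend and dye, with LOWESS settings in the file headers. The deposited value table held the same log10 ratios, with a largest difference of 0 over 62976 features.

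Log ratios were multiplied by 3.3219 to the log2 scale. Control and flagged spots were left out and spots of a probe averaged. Of 42405 and 50599 probes on both designs, 28004 and 29666 were matched by name to genes of RefSeq GRCh38.p14. Genes counted per array were well above background in at least 1 channel. Calls by size used 0.5 on each array in both directions, whereas the study averaged both lines and used it for lower genes. limma 3.58.1 in R 4.3.3 tested treatments with several lines per design, with lines as samples and Benjamini-Hochberg adjustment at 0.05 over probes above background on every array, and was tested on simulated data. Lines are the only repeats, and their number limits precision. Python 3.11.15 did the rest.

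Named genes were 8 fixed members on the main arrays, the lowest and highest members of each array, members past a limit in every line or called by limma, the siRNA targets and the 10 most similar genes. Other genes named were chosen after their values were seen. The members and lists were chosen with earlier results of these data known. Alternatives changed background correction, dye and slide centring, filters, probes, limits, arrays in the fit and the control.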

Additional observations from a re-analysis of the deposited data

Results flagged for a closer look

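HMMR and KIF18A lay past 0.5 in opposite directions in both lines treated with genistein. HMMR was at -3.71 in PC3 and 0.69 in DU145, and KIF18A at -1.44 in PC3 and 0.59 in DU145. With 1 array for each line the difference was not tested. No treatment had the 4 arrays that a search for outlying samples needs.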

How the results depend on the processing

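The median of the members on each of the 24 arrays moved by at most 0.29 with normexp, 0.15 with no background correction, 0.10 with median centring and 0.19 after subtracting the mean of other treatments of the design. Centring on the other treatments of a slide moved it by up to 0.57 (A498 si-CAV2, 0.94), since slide 1 holds the PC3 genistein array, and changed the sign for FaDu si-LAMB3 (-0.19) and SAS miR-29a (-0.19). None of these moved a median by more than 0.62, the pooled SD between lines of a treatment, which is itself 0.29 without genistein. Filters and the value table changed no median. Against the control channels of the other arrays of the same line, chosen after the values were seen, the median changed sign on 5 of 20 arrays: PC3 miR-145 (0.36), DU145 miR-145 (0.36), PC3 miR-23b (-0.15), SAS si-LAMB3 (0.12) and FaDu wogonin (0.29). It moved to -0.79 for DU145 genistein and -1.22 for 786O CXCL10 24h. With the 3 like PC3 controls as 1, it was 0.23 for PC3 miR-145, -0.61 for miR-23b, -0.071 for miR-24 and 0.10 for miR-27b. The cause was not tested. With a limit of 1.0, members called numbered 7 lower for PC3 miR-145, 16 higher for FaDu miR-375, 1 lower and 24 higher for PC3 miR-24 and 31 higher for PC3 miR-27b. The share of all genes past 1.0 was not counted, so these counts cannot be set against genes at large. Slide centring left 15 lower and 1 higher for PC3 miR-145, normexp and no background correction gave 1 higher there, and design centring left 3 lower for PC3 miR-24. limma called 23 members lower for genistein with no background correction, 18 with normexp, 1 with no filter and 3 with the arrays of the slide only, and between 0 and 53 when a line was left out. It called 23 lower for miR-145, and 2 lower and 6 higher for si-LAMB3, without the genistein arrays. For miR-143 it called 5 lower with normexp and 4 with no background correction, and for si-GOLM1 9 and 6 higher. The counts for miR-143 and si-GOLM1 have no share of all probes beside them. After subtracting the other treatments of the design, 44 to 54 of 55 members kept the sign of their mean. Depth in reads does not apply, and the number of arrays limits precision.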
